A study of Mus musculus with 9 samples.

Results

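Endothelial cells line blood and lymphatic vessels. The 10 genes described here mark them: Kdr, Flt1, Tek and Tie1 (receptor tyrosine kinases), Eng (a TGF-beta co-receptor), Pecam1 and Cdh5 (adhesion molecules of the cell junction), Emcn and Plvap (surface proteins) and Vwf (a clotting protein). They were looked up by symbol among the 18193 genes that have a probe set of their own, and every probe set annotated to 1 of these symbols alone was taken. This gave 15 probe sets of 45101 on the array: 4 for Flt1, 2 each for Cdh5 and Eng, and 1 for each of the other 7 genes. All 15 passed the filter on dim probe sets, a mean signal of 41.2.

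RNA came from the urogenital sinus of C57BL/6 mice, from which the prostate and the bladder neck form. Dams were dosed from embryonic day 13 to 16 and formed 3 groups. BPA (bisphenol A, used in making plastics and weakly estrogenic) was given at 20 µg/kg/day. DES (diethylstilbestrol, an estrogen drug) was given at 0.2 µg/kg/day. Control dams received vehicle, and both agents had been dissolved in corn oil stripped of tocopherol. Tissue was taken at embryonic days 17 and 18 (E17 and E18) and on the day of birth (P0). Each of the 9 combinations of agent and age was represented by 1 array, so the 3 ages were the only repeats of an agent and the 3 agents the only repeats of an age. Male and female tracts were dissected, and the labels give neither the sex of the tissue on an array nor the number of animals or litters behind it. P-values therefore measure only the spread among these arrays, part of which may be technical.

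Vessels grow under a few signalling systems. Kdr (VEGF receptor 2) is the main signalling receptor for VEGF-A, and Flt1 (VEGF receptor 1) binds the same ligand tightly and can act as a decoy, in part as a secreted form. Tek (Tie2) is the receptor of the angiopoietins and Tie1 its partner, while Eng works with the receptor Acvrl1 in the response to BMP9 and BMP10. Cdh5 (VE-cadherin) and Pecam1 hold neighbouring endothelial cells together, Emcn (endomucin) is a mucin of capillaries and veins, Plvap forms the diaphragms of fenestrae and caveolae, and Vwf is stored in endothelial granules and also in platelets.

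The deposited intensities had not been brought to a common level. The trimmed mean (2% off both ends) was lowest for BPA P0, at 157, and highest for DES E17, at 277, and signals below are after quantile normalization. All 9 urogenital sinus epithelium markers and all 8 mesenchyme markers that were matched passed the filter. On the BPA P0 array, gonad markers summed to 3669 over the matched genes, against 544 to 639 on the other 8 arrays, and markers of keratinising epithelium to 23881, against 3104 to 11121. The part of these cells in the endothelial values was not tested.

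The stretch before the transcription start of 2 of these genes is shown, with RefSeq sequence of build GRCm38.p6. Eng on chromosome 2 and Tie1 on chromosome 4 were chosen because their 250 upstream bases lie outside the annotated gene. Capitals mark AGGAAG and CGGAAG on either strand, hexamers that hold the core bound by ETS factors such as Erg and Fli1, and none of the marked hexamers overlap.
Eng, chr2:32646345-32646594, plus strand: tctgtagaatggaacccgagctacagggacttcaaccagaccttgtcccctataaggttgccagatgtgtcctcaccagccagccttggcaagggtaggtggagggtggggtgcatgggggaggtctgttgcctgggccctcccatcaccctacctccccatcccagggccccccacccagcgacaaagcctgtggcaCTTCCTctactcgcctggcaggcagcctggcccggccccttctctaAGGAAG
Tie1, chr4:118489850-118490099, minus strand: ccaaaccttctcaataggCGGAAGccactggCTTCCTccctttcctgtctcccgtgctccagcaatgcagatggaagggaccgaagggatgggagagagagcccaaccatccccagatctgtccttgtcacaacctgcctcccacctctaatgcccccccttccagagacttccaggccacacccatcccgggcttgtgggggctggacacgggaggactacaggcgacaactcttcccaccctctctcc
Each of these windows held 2 such hexamers. Of the 6 member genes with a promoter entry, Emcn and Flt1 also had 2 each, whereas Kdr and Tek had 0, which says only that these letters are not in those windows. Unlike those of Eng and Tie1, the windows of Emcn, Flt1, Kdr and Tek lie partly or wholly inside the annotated gene. Among all 32851 promoters of the table, 39.2% held at least 1 of the hexamers within the same length. A match is a description of the sequence and not a binding site, and its relation to the signals on the arrays was not tested.

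The comparison of ages asked how the endothelial genes stood on the day of birth against E17. The 8 genes other than Kdr and Flt1 were higher at P0 after quantile normalization, by 0.20 to 0.30 log2 units. Kdr and Flt1 were lower by 0.055 and 0.26 log2 units. Over the 10 genes (the probe set of highest mean for each) the median was 0.24, against -0.0063 over all 26999 tested probe sets. With values as deposited 0 of the 10 were higher at P0 and their median was -0.050, where the median of all tested probe sets was -0.29, and in both scalings 8 of the 10 lay above the median of all probe sets. None of the 15 probe sets passed the threshold in limma (adjusted p = 0.220 to 0.971), in a comparison that called 25 probe sets, or 0.0926%. In tissue RNA, a change in the number of endothelial cells cannot be told apart from a change in the RNA of each cell. Other cells differed between these ages too: skeletal muscle markers were higher at P0 in 8 of 10 (median 1.24, 3 passing in limma), smooth muscle markers lower in 9 of 9 (median -0.55, 0 passing, 5 at an unadjusted p under 0.05), keratinising markers higher in 7 of 7 tested (median 1.19, 0 passing, 0 at an unadjusted p under 0.05) and erythroid markers lower in 3 of 3 tested (median -1.004, 0 passing, 1 at an unadjusted p under 0.05). Their part in the endothelial difference was not tested.

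Cdh5 and Pecam1 stand for the junction between endothelial cells. In the order E17, E18 and P0, Cdh5 (1433956_at, gene at chr8:104101613-104144504, GRCm38.p6) had normalised signals of 482, 514 and 579 on the BPA arrays, 470, 576 and 553 on the DES arrays, and 518, 547 and 654 on the Control arrays. The 3 P0 arrays lay above the 3 E17 arrays, with a log2 difference of 0.28 ± 0.10 (SE; limma adjusted p = 0.220). The second Cdh5 probe set (1422047_at) was dimmer, at 63.8 to 103 over the 9 arrays, and had 0.27 ± 0.19, higher at P0 within BPA and Control and lower within DES. Pecam1 (chr11:106654213-106715281) gave signals of 472, 602 and 597 on the BPA arrays, 537, 570 and 517 on the DES arrays, and 505, 517 and 629 on the Control arrays. Its ages overlapped, since the DES P0 array lay below the DES E17 array (log2 difference of 0.20 ± 0.12, limma adjusted p = 0.418).

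The angiopoietin receptor Tek and its partner Tie1 were higher at P0 than at E17 within all 3 agents. Tek (chr4:94739086-94874976) read 385, 393 and 426 on the BPA arrays, 395, 393 and 453 on the DES arrays, and 393, 465 and 483 on the Control arrays. The E17 values were close together (391 ± 4.9, SD, n = 3 arrays) and every P0 array lay above them, with 454 ± 28.5 at P0. Tie1 (chr4:118471191-118489849) showed signals of 161, 171 and 195 on the BPA arrays, 174, 165 and 221 on the DES arrays, and 205, 178 and 241 on the Control arrays. Here the BPA P0 array lay below the Control E17 array, so the ages overlapped, although each P0 array was above the E18 array of every agent. Its log2 difference was 0.28 ± 0.13 between P0 and E17 and 0.34 ± 0.13 between P0 and E18 (limma adjusted p = 0.299 and 0.311).

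Eng (chr2:32646595-32682669), the co-receptor for BMP9, had signal values of 630, 657 and 690 on the BPA arrays, 505, 644 and 711 on the DES arrays, and 643, 690 and 722 on the Control arrays (1417271_a_at). It was higher at each later age within each agent, and the 3 P0 arrays (708 ± 16.6, SD, n = 3) lay above the 3 E17 arrays (593 ± 76.2). The log2 difference of 0.26 ± 0.10 did not pass (limma adjusted p = 0.239). The second Eng probe set (1432176_a_at) had 305, 277 and 485 on the BPA, DES and Control arrays at P0, against 275, 267 and 296 at E17. On it the Control P0 array stood alone above the other 8, which lay between 254 and 305.

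Among the surface and secreted proteins, Emcn and Plvap had P0 arrays that lay above all E17 arrays. Emcn (chr3:137341062-137431069) gave signals of 577, 577 and 598 on the BPA arrays, 485, 507 and 665 on the DES arrays, and 520, 532 and 581 on the Control arrays. It differed little between ages after BPA (0.05 log2 units from E17 to P0) and most after DES (0.45). Plvap (chr8:71497753-71511806) read 326, 298 and 383 on the BPA arrays, 300, 322 and 354 on the DES arrays, and 334, 354 and 456 on the Control arrays, and its log2 difference of 0.30 ± 0.11 was the highest of the 10 genes for P0 against E17 (limma adjusted p = 0.225).

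For Vwf (chr6:125552948-125686679), 1 array held most of the difference. Its signals were 305, 316 and 322 on the BPA arrays, 321, 240 and 287 on the DES arrays, and 239, 257 and 456 on the Control arrays. The Control P0 array was the highest and the Control E17 array the lowest of the 9. The log2 difference between P0 and E17 was 0.28 ± 0.19 (limma adjusted p = 0.482) and 0.0076 without the Control P0 array.

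**Figure D1:**
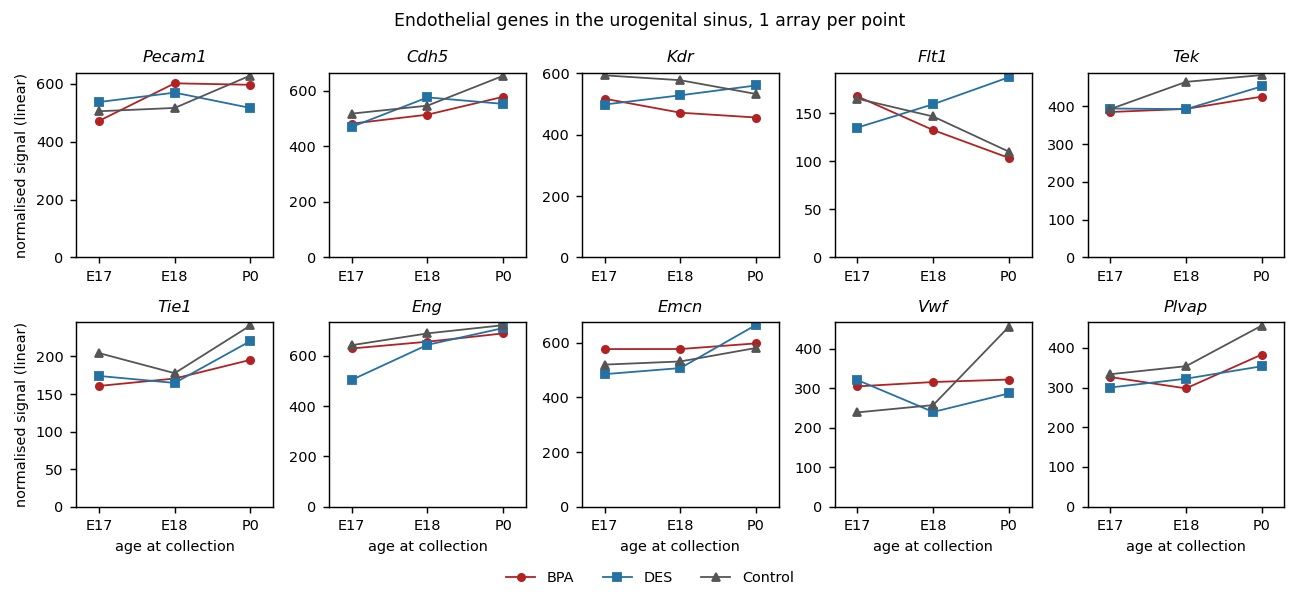
Normalised signal (linear axis from 0) of the 10 endothelial genes by age at collection, 1 array per point, with lines joining the arrays of BPA, DES and Control. The Control P0 array is the highest of the 9 for 7 genes, and Flt1 runs down with age in BPA and Control and up in DES.

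The members that were not higher at P0 were the VEGF receptors Kdr and Flt1. Flt4, a VEGF receptor that is not a member, was higher at P0 than at E17 (0.21 ± 0.12 log2 units, limma adjusted p = 0.397). Kdr (chr5:75932827-75979072) showed signals of 518, 472 and 456 on the BPA arrays, 499, 529 and 561 on the DES arrays, and 594, 578 and 533 on the Control arrays. It was lower at each later age on the BPA and Control arrays and higher on the DES arrays. P0 and E17 overlapped, with a log2 difference of -0.055 ± 0.11, below its own SE (limma adjusted p = 0.828). For Flt1 (chr5:147561604-147726438), the brightest probe set (1419300_at) had 168, 133 and 104 on the BPA arrays, 135, 159 and 188 on the DES arrays, and 165, 147 and 110 on the Control arrays. The pattern was thus the same as that of Kdr and wider, with P0 against E17 at -0.67 log2 units within BPA, 0.46 within DES and -0.56 within Control.

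The 4 Flt1 probe sets did not all follow one another. Probe set 1451756_at had 127, 83.9 and 82.6 on the BPA arrays, 102, 150 and 128 on the DES arrays, and 127, 138 and 75.0 on the Control arrays. Probe set 1440926_at had 164, 96.4 and 43.7 on the BPA arrays, 60.1, 79.0 and 104 on the DES arrays, and 124, 90.3 and 66.8 on the Control arrays. Both were lower at P0 than at E17 within BPA and Control and higher within DES, as on 1419300_at. The dimmest on average, 1454037_a_at, had 95.6, 78.9 and 53.9 on the BPA arrays, 63.1, 61.6 and 87.5 on the DES arrays, and 97.0, 92.6 and 130 on the Control arrays, so that here the Control arrays were higher at P0. Over the 9 arrays its correlation with 1419300_at was 0.15, against 0.85 for 1451756_at and 0.78 for 1440926_at. Flt1 gives rise to membrane-bound and shorter secreted transcripts, and which of them each probe set reads was not tested.

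**Figure D2:**
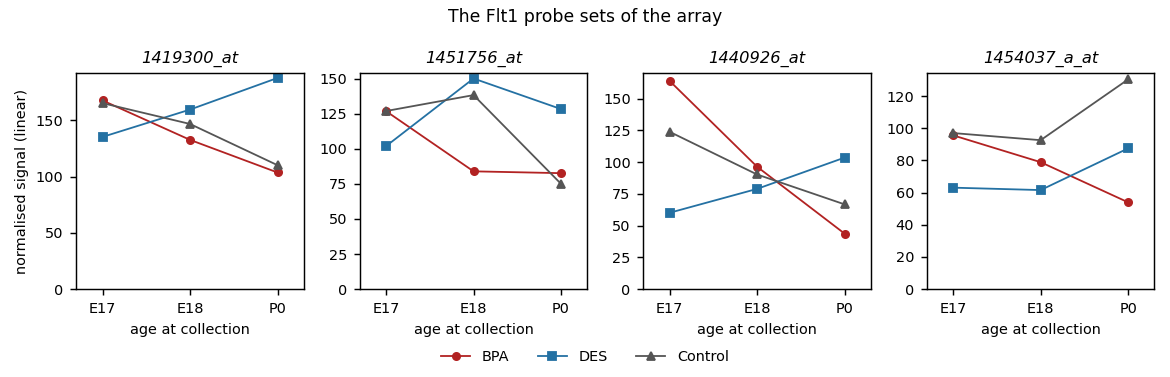
Normalised signal (linear axis from 0) of the 4 Flt1 probe sets by age at collection, 1 array per point, for BPA, DES and Control. On the first 3 panels the BPA and Control arrays are lower at P0 than at E17 and the DES arrays higher, and on 1454037_a_at the Control P0 array is the highest at 130.

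By count, 5 of the 10 genes (Cdh5, Tek, Eng, Emcn and Plvap) had all 3 P0 arrays above all 3 E17 arrays, where 9.94% of all tested probe sets did. At an unadjusted p under 0.05, 3 of the 10 were higher (Cdh5, Eng and Plvap) and 0 lower, beside 8.06% of all probe sets higher and 9.27% lower. The median difference was 0.14 within BPA, 0.23 within DES and 0.26 within Control, with 8 of 10 genes higher in each, and 6 genes were higher within all 3 agents, where 18.3% of all probe sets were. Without the 3 Control arrays 7 of 10 were higher with a median of 0.20, and without the Control P0 array alone the median was 0.22. Without the DES P0 array the call count over all probe sets was 1606 in place of 25. Still 0 of the 15 endothelial probe sets were among the calls. The lowest limma adjusted p was then 0.0608, for 1440926_at of Flt1, which was lower at P0 (-1.16). With all arrays, this probe set was higher at P0 within DES (0.73) and lower within BPA and Control.

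**Figure D3:**
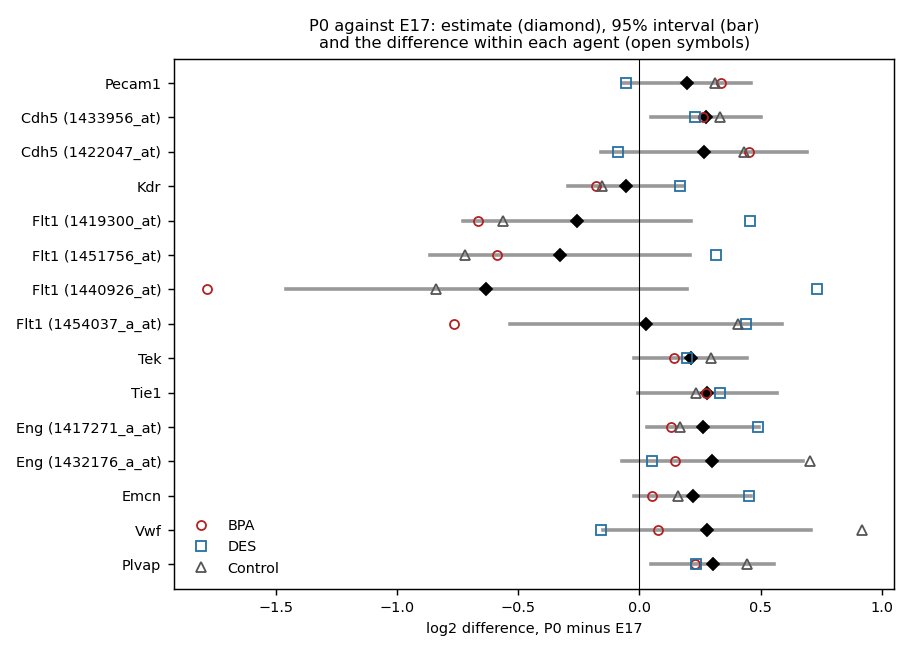
Log2 difference of P0 minus E17 after quantile normalization for the 15 probe sets, with the limma estimate (diamond), its 95% interval (bar) and the difference within each agent (open symbols). The probe sets of genes other than Kdr and Flt1 lie at 0.20 to 0.30, and with values as deposited the median of the 10 genes is -0.050, where that of all tested probe sets is -0.29.

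Each step between ages was tested as well. Between E17 and E18, 6 of the 10 genes were higher with a median of 0.025, and 0 of the 15 probe sets passed (limma; 0% of all probe sets called, and 0 of the 15 at an unadjusted p under 0.05, beside 2.75% of all). Between E18 and P0, 8 of 10 were higher with a median of 0.12, and 0 of 15 passed (0% of all called by limma), while 3 of the 15 had an unadjusted p under 0.05, beside 13.5% of all probe sets. Eng was higher on every E18 array than on any E17 array, as were 5.17% of all probe sets, and Tie1 and Emcn on every P0 array than on any E18 array, as were 6.99%. The 3 probe sets were those of Tie1, Plvap (0.28 ± 0.11) and the second Eng probe set (0.37 ± 0.17). With values as deposited 3 and 4 of 10 were higher in these steps, with medians of -0.092 and -0.058 where all tested probe sets had -0.12 and -0.17.

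BPA was compared with Control to ask how exposure in utero alters expression in the sinus. Of the 10 genes 7 were lower after BPA and 3 higher (Emcn, Vwf and Pecam1), with a median of -0.095 log2 units against -0.0043 over all tested probe sets. With values as deposited all 10 were lower, with a median of -0.36 where all probe sets had -0.24. Without BPA E17 the median was -0.16, and without BPA E18 or without Control E18 1 gene was higher in place of 3. None of the 15 probe sets passed (limma adjusted p = 0.640 to 0.994; 0% of all probe sets called), and 0 had an unadjusted p under 0.05, beside 7.84% of all. Markers of other cells differed more in this comparison, with 0 passing in limma. Smooth muscle markers were higher in 9 of 9 (median 0.75, 8 at an unadjusted p under 0.05) and keratinising markers in 7 of 7 tested (median 2.16, all 7). Skeletal muscle markers were lower in 8 of 10 (median -0.70, 7 lower and 2 higher at an unadjusted p under 0.05). Their part in the endothelial values was not tested.

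Kdr was the member gene whose BPA and Control arrays did not overlap: its BPA signals of 518, 472 and 456 all lay below the Control signals of 594, 578 and 533. It averaged 482 ± 31.8 after BPA and 568 ± 31.5 in Control (SD, n = 3 arrays each). The log2 difference was -0.24 ± 0.11 with a 95% interval of -0.47 to 0.0015 (limma adjusted p = 0.640). Of all tested probe sets, 5.26% were likewise lower on all 3 BPA arrays. Across the 19 alternatives Kdr stayed lower after BPA, between -0.50 and -0.12. Several of these cannot move the estimate in this design: the filter, the variance trend, the covariates, the probe set choice and leaving out a DES array. Cdh5, Tek, Tie1, Eng and Plvap were also lower at each of the 3 ages (so 6 genes with Kdr, where 15.9% of all probe sets were), by 0.055 (Eng) to 0.23 (Tie1) on the log2 scale, and their groups overlapped. Emcn was higher at each age (0.10 ± 0.11). Within the ages, the median over the 10 genes came to -0.030 (E17), -0.079 (E18) and -0.18 (P0), each from 1 BPA and 1 Control array. The BPA P0 array is the one with raised gonad and keratinising markers, and the Control P0 array was the highest for 7 of the 10 genes.

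DES was compared with the same 3 Control arrays. Of the 10 genes 8 were lower and 2 higher (Flt1 and Emcn), with a median of -0.11 against 0.0035 over all tested probe sets, and with values as deposited 7 were lower with a median of -0.027 against 0.081. None of the 15 probe sets passed (limma adjusted p = 0.843 to 0.993; 0% of all called), and 0 had an unadjusted p under 0.05, beside 5.63% of all. Plvap averaged 325 ± 26.9 after DES and 381 ± 65.6 in Control (SD, n = 3 arrays each), with a log2 difference of -0.21 ± 0.11 and a 95% interval of -0.47 to 0.039. Tie1, Eng and Plvap were lower at each of the 3 ages, as were 13.1% of all tested probe sets, and their groups overlapped. For Kdr the DES estimate was -0.10 ± 0.11 and the BPA estimate -0.24 ± 0.11, and for Plvap they were -0.21 and -0.17. The agents differed in dose and shared their controls, so they were not set against each other. The Flt1 probe set 1454037_a_at had 63.1, 61.6 and 87.5 on the DES arrays, all below 97.0, 92.6 and 130 on the Control arrays, as were 5.04% of all probe sets. Its limma p was 0.0507 and its adjusted p 0.843.

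**Figure D4:**
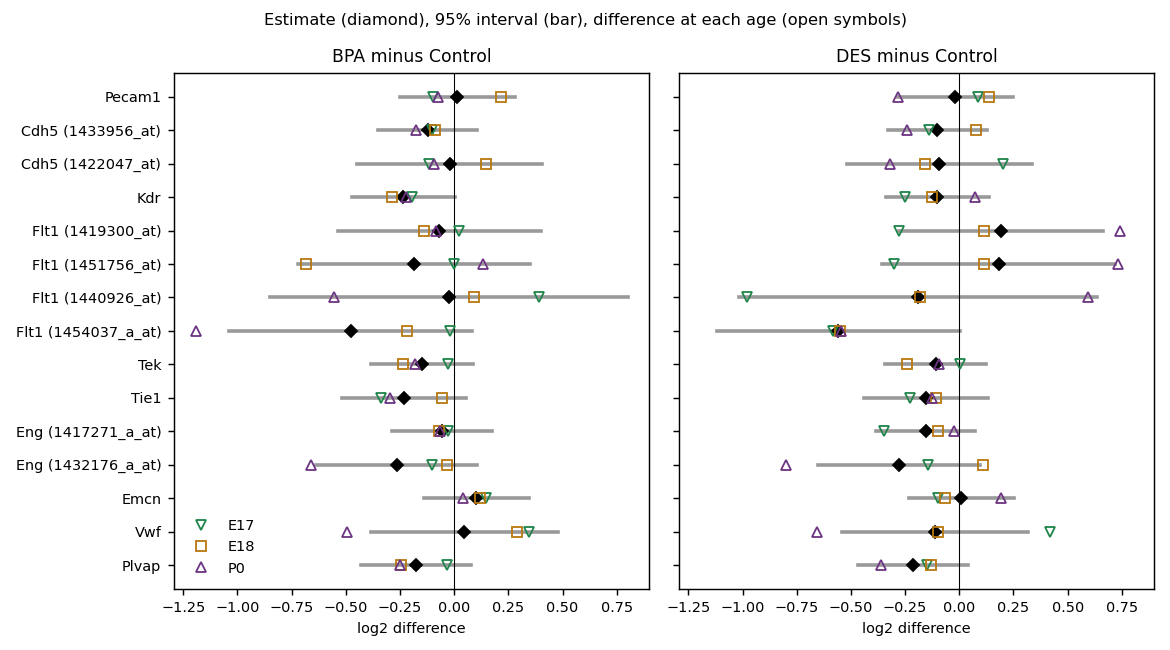
Log2 differences of BPA minus Control (left) and DES minus Control (right) after quantile normalization for the 15 probe sets, with the limma estimate (diamond), 95% interval (bar) and the difference at each age (open symbols). All intervals include 0, the Kdr interval for BPA ends at 0.0015, and with values as deposited all 10 genes are lower after BPA.

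A further model gave each agent its own slope over the 3 ages, with 2 residual degrees of freedom, and tested the difference of that slope from the Control slope. For DES, Flt1 had 0.51 ± 0.18 log2 units per age step on 1419300_at and 0.79 ± 0.22 on 1440926_at, and Vwf had -0.54 ± 0.16 (unadjusted p = 0.0192, 0.00613 and 0.0097). For BPA, Vwf had -0.42 ± 0.16 per step and the Flt1 probe set 1454037_a_at -0.59 ± 0.23 (unadjusted p = 0.0303 and 0.0359). The other Flt1 probe sets each had an unadjusted p above 0.05 in limma, and they did not all go the same way. For DES, 1451756_at had 0.52 ± 0.25 and 1454037_a_at 0.017 ± 0.23. For BPA, 1419300_at had -0.052 ± 0.18, 1451756_at 0.066 ± 0.25 and 1440926_at -0.47 ± 0.22. Single arrays moved these values: for BPA, Vwf had -0.77 without BPA E17, -0.065 without BPA P0 and -0.23 without Control P0, and 1454037_a_at had -0.97, -0.20 and -0.38 without the same arrays. For DES, Vwf had -0.34 without Control P0. None of these passed when adjusted over all probe sets. Where the unadjusted p was under 0.05, the limma adjusted p was 0.641 to 0.647 for DES and 0.541 and 0.556 for BPA. Of all probe sets limma called 0% for DES and 0.00741% for BPA. At an unadjusted p under 0.05 there were 3 of 15 probe sets for DES and 2 for BPA, beside 7.22% and 8.56% of all.

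The Control P0 array carried the highest signal of 7 of the 10 genes (Pecam1, Cdh5, Tek, Tie1, Eng, Vwf and Plvap). The mean of the 10 genes, each centred on its own mean log2 value, was 0.19 on that array, 0.11 on DES P0 and 0.0085 on BPA P0, and lay between -0.12 and 0.00091 on the 6 prenatal arrays. Markers of leukocytes were also highest there, with a summed signal of 3360 over 11 genes against 2398 to 2921 on the other arrays, and 11 of 11 were higher at P0 than at E17 (median 0.24; 0 passing in limma, 4 at an unadjusted p under 0.05, beside 17.3% of all probe sets). Platelet markers summed to 1365 on it, within the 1188 to 1677 of the other arrays, and the platelet genes Gp9 and Ppbp were below the filter (3.6 to 13.1 and 15.6 to 49.8). Of 5 tested platelet markers, 2 were higher and 3 lower at P0 than at E17 (median -0.11, 0 passing in limma, 1 at an unadjusted p under 0.05). Pf4 was the marker with the smallest p and was higher, at 0.36 ± 0.092 (limma adjusted p = 0.132). The part of blood cells in the endothelial values was not tested. Without the Control P0 array the median difference of the 10 genes was -0.10 for BPA and -0.079 for DES against Control.

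The 10 genes varied by little and not as one. The highest signal was 1.25 times the lowest for Tek and 1.91 times for Vwf, with the other genes between. Each gene's correlation over the 9 arrays with the mean of the other 9 genes was 0.82 for Plvap, 0.81 for Tek and Tie1, 0.75 for Cdh5 and 0.71 for Eng. It came to 0.56 for Emcn, 0.27 for Vwf, 0.23 for Pecam1, 0.14 for Kdr and -0.44 for Flt1. Of the 45 pairs of genes 35 had a correlation above 0, with a median of 0.34. The arrays share their normalization, and these values describe 9 arrays only.

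The ligands and partners of these receptors were taken from lists of the pathway. List counts at an unadjusted p under 0.05 stand beside 17.3% of all tested probe sets for P0 against E17 and 7.84% for BPA against Control. Among 8 VEGF ligands and co-receptors (the receptor Flt4 included), 3 were higher and 5 lower at P0 than at E17, with a median of -0.25. Of these, 0 passed in limma over all probe sets, and 4 had an unadjusted p under 0.05, all lower. Vegfa, the main ligand of Kdr and Flt1, had signal values of 452, 275 and 202 on the BPA arrays, 350, 298 and 305 on the DES arrays, and 426, 329 and 213 on the Control arrays, again in the order E17, E18 and P0. It was lower at P0 than at E17 within each agent, with a log2 difference of -0.77 ± 0.18 (limma adjusted p = 0.112). Nrp2 and Nrp1, co-receptors of the VEGF receptors, had -0.34 ± 0.10 and -0.19 ± 0.073, and Vegfb -0.30 ± 0.12 (limma adjusted p = 0.169, 0.226 and 0.232). The angiopoietin list held 5 genes: Angpt1, Angpt2, Angpt4, the receptor phosphatase Ptprb and the matrix protein Svep1. Of these 3 were higher at P0 than at E17, 0 passed in limma and 1 had an unadjusted p under 0.05. Angpt1, the activating ligand of Tek, had 0.22 ± 0.18 between E17 and P0 and 0.41 ± 0.18 between E18 and P0 (limma adjusted p = 0.546 and 0.357). Angpt2 and Angpt4 were lower at P0 than at E17 (-0.093 ± 0.21 and -0.26 ± 0.20, limma adjusted p = 0.855 and 0.529). Svep1 had 0.37 ± 0.13 between E17 and P0 (limma adjusted p = 0.213).

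Of 11 tested partners and targets of endoglin, 8 were higher at P0 than at E17 (median 0.052; 0 passing in limma, 2 at an unadjusted p under 0.05, a share near that of all probe sets). After BPA 7 of the 11 were lower, 0 passed and 3 had an unadjusted p under 0.05. Id1 and Id3, targets of BMP signalling, had log2 differences of -0.23 ± 0.091 and -0.21 ± 0.070, and Tgfb1 0.42 ± 0.13 (limma adjusted p = 0.590, 0.503 and 0.466). Id3 gave signals of 2522, 2687 and 2498 on the BPA arrays, all below 2978, 3048 and 2861 on the Control arrays. Of all tested probe sets, 5.26% were likewise lower on all 3 BPA arrays.

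Among other endothelial genes, too, most were higher at the later age, as were 8 of the 10 members. Of 25 tested, 21 were higher at P0 than at E17, with a median of 0.18; 0 passed in limma over all probe sets, and 8 higher and 1 lower had an unadjusted p under 0.05. These list values are after quantile normalization, and were not computed on the values as deposited. The apelin receptor Aplnr had 0.45 ± 0.084 and the tight junction gene Cldn5 0.49 ± 0.11 (limma adjusted p = 0.083 and 0.109), and Esam and Cd34 had 0.33 ± 0.11 and 0.34 ± 0.12 (limma adjusted p = 0.186 and 0.194). Cldn5 had 435, 454 and 619 on the BPA arrays, 421, 442 and 518 on the DES arrays, and 411, 487 and 655 on the Control arrays. Its P0 arrays lay above all E17 arrays, as for 9.94% of all tested probe sets, and above all E18 arrays, as for 6.99%. Esm1, a secreted tip cell product, went the other way (-0.71 ± 0.24, limma adjusted p = 0.200), and after BPA it had -0.77 ± 0.24 (limma adjusted p = 0.483). Of 15 endothelial transcription factors 10 were higher at P0 (median 0.13; 0 passing in limma, 1 at an unadjusted p under 0.05), led by Lyl1 at 0.55 ± 0.21 (limma adjusted p = 0.223). The members, these lists and the other lists were chosen with results of these data known.

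**Figure D5:**
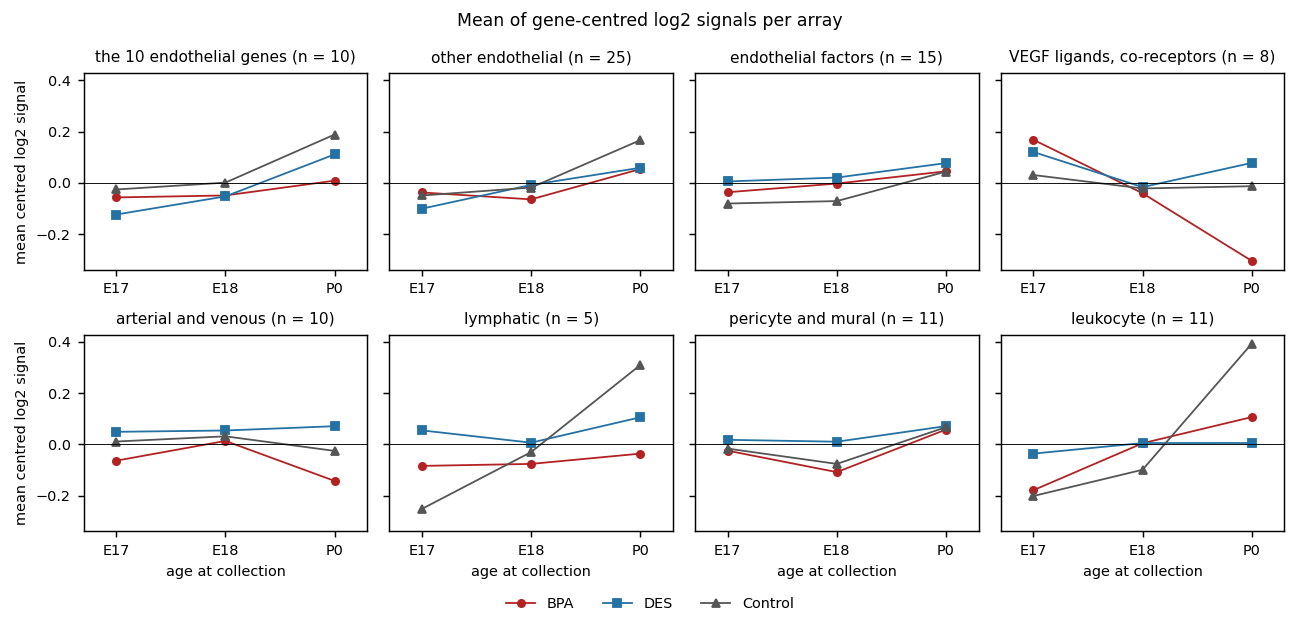
Mean of gene-centred log2 signals on each array after quantile normalization, by age, for the 10 endothelial genes and 7 further lists (n, genes tested), with lines for BPA, DES and Control. The 10 genes reach 0.19 on the Control P0 array, and the VEGF ligands and co-receptors are lowest on the BPA P0 array, at -0.30.

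The genes whose profile over the 9 arrays was most like the mean of the 10 members were ranked by Pearson correlation among 13398 genes. Outside all lists they were Mrln, Itm2c, Phf11d, Mxra8 and Olfml1, with r between 0.94 and 0.96, all highest on the Control P0 array. Within the companion lists they were Clec14a (0.90), Vim (0.87), Reln (0.86), Cd34 (0.83) and Gpihbp1 (0.81). Clec14a, Cd34 and Gpihbp1 are endothelial surface proteins, whereas Vim came from the mesenchyme list and Reln from the lymphatic list. These correlations describe 9 arrays that share their normalization.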

How the data were processed

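The authors deposited probe set intensities, not log transformed, and the submitters' processing notes name MAS5 (Affymetrix's probe summary). Its version and scaling target are not given in the sources used here. Of the 45101 probe sets 64 were Affymetrix controls, and 0 pairs of arrays held identical values. After quantile normalization over all probe sets, log2(signal + 5.46) was taken (5.46 is the 10th percentile of normalised values), which understates fold changes of dim genes. Probe sets under the 40th percentile of mean log2 value (5.54) and controls were dropped, leaving 26999. Gene names are those of the platform annotation, and all 10 members were found in RefSeq (GRCm38.p6), the source of coordinates and promoters.

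Age and agent were the factors of one linear model over the 9 arrays (limma 3.58.1, R 4.3.3, with an intensity trend in eBayes), with 4 residual and 5.77 prior degrees of freedom. Benjamini-Hochberg adjustment covered all tested probe sets, and 0.05 was the threshold. Scripts were tested on simulated data. A gene with several probe sets is counted by its brightest. The members and lists were chosen with earlier results of these data known. Named genes are all members and, per list, up to 4 of smallest p in a comparison. Gp9, Ppbp and Lyve1 are named outside that rule, after their values were seen. The genes outside all lists (Mrln, Itm2c, Phf11d, Mxra8 and Olfml1) are also outside it and were named by their correlation with the members. Alternatives changed scaling, pseudocount, filter, variance trend, covariates, probe set choice and the arrays used. Arrays carry no read depth, and their number limits the precision.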

Additional observations from a re-analysis of the deposited data

How the results depend on the processing

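No member passed the threshold under any alternative, so no member call could be lost. The filter, the variance trend, the covariates and the probe set choice cannot move a difference in this design, nor can some left-out arrays. The counts of turned signs below include these alternatives. The sign of a member's difference turned in 28 of 280 values over the alternatives for BPA, 13 of 280 for DES, 27 of 295 for E18 against E17, 14 of 295 for P0 against E18, 18 of 295 for P0 against E17, 24 of 235 for the BPA slope and 14 of 235 for the DES slope. With values as deposited, probe sets called over the whole array numbered 392 for P0 against E17, 36 for BPA, 3 for E18 against E17, 7 for P0 against E18, 453 for the BPA slope and 80 for the DES slope. The medians of the 10 genes were then -0.050, -0.36, -0.092, -0.058 and -0.32 in the first 5, and -0.027 for DES. For P0 against E17 the count was 62 with a pseudocount of 32, 7 without the filter, 83 with 1 probe set per gene, and 0 without the intensity trend, without BPA E18 and P0, without BPA P0 and DES E17, or without all 3 Control arrays (an alternative chosen after seeing the data). BPA had 2 calls with 1 probe set per gene and 4 without BPA E18 and P0, where the E18 against E17 median was 0.053. The BPA slope had 5 calls with a pseudocount of 32, 0 without the trend and 8 with 1 probe set per gene. Leaving out 1 array at a time gave 0 to 7 calls for BPA, 0 to 1 for E18 against E17, 0 to 663 for P0 against E18, 0 to 1606 for P0 against E17, 0 to 166 for the BPA slope and 0 to 132 for the DES slope. The median then ran from -0.16 (without BPA E17) to -0.073 (without BPA P0) for BPA, from -0.13 to -0.079 for DES and from 0.019 to 0.074 for E18 against E17. The causes were not tested. The labels give no replicate numbers, so no replicate block was fitted; arrays of different agents were matched by age in the model itself, and with only the compared factor the medians were as before.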

Other observations

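Lists of vessel subtypes and neighbouring cells were described for P0 against E17, where 17.3% of all tested probe sets had an unadjusted p under 0.05. Of 5 lymphatic genes 4 were higher at P0 than at E17 (median 0.35, 0 passing in limma; 2 had an unadjusted p under 0.05), led by Reln at 0.57 ± 0.10 and Pdpn at 0.46 ± 0.11 (limma adjusted p = 0.067 and 0.116). Lyve1, a hyaluronan receptor of lymphatic endothelium and of some macrophages, had 483, 533 and 437 on the BPA arrays, 480, 591 and 404 on the DES arrays, and 323, 379 and 887 on the Control arrays, in the order E17, E18 and P0. As with Vwf, the Control P0 array stood above the other 8. Of 10 arterial and venous genes 4 were higher and 6 lower at P0 (median -0.045, 0 passing in limma; 1 higher and 2 lower had an unadjusted p under 0.05). Gja4, an arterial connexin, had 284, 284 and 259 on the BPA, DES and Control arrays at P0 against 173, 194 and 180 at E17, a log2 difference of 0.58 ± 0.13 (limma adjusted p = 0.109). Efnb2, an arterial ephrin that other cells of the sinus also express, had -0.44 ± 0.11 (limma adjusted p = 0.128).

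Of 11 pericyte and mural cell genes 6 were higher at P0 than at E17 (median 0.014, 0 passing in limma; 3 had an unadjusted p under 0.05). Rgs5, a pericyte marker, had 2101, 2214 and 2093 on the BPA, DES and Control arrays at P0 against 1654, 1688 and 1547 at E17, a log2 difference of 0.39 ± 0.071 (limma adjusted p = 0.078). Kcnj8, a potassium channel subunit of pericytes, had 0.43 ± 0.11 (limma adjusted p = 0.130). After BPA, Nr2f2, a transcription factor of venous endothelium that mesenchyme also expresses, had a log2 difference of -0.26 ± 0.075 (limma adjusted p = 0.459). It read 1416, 1332 and 1292 on the BPA arrays, all below 1601, 1555 and 1671 on the Control arrays, as did 5.26% of all tested probe sets.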
